A study of Homo sapiens with 18 samples.

Results

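The genes described here are 9 receptors of the B-cell surface or secretory pathway that belong to the Fc receptors or to the Fc receptor-like (FCRL) family: FCRL1, FCRL2, FCRL3, FCRL4, FCRL5, FCRLA, FCGR2B, FCMR and FCER2. They were chosen by gene symbol, and all 9 were found among the 56609 gene symbols of the count table and were among the 31872 genes tested. RNA was sequenced from 3 cell lines derived from chronic lymphocytic leukemia (CLL), HG3, MEC2 and PCL12, each left unstimulated or stimulated for 4 h with 2.5 µg/mL of the CpG oligonucleotide ODN-2006, an agonist of Toll-like receptor 9, with 3 libraries in each of the 6 groups. The study describes all 3 lines as EBV-positive, with mutated IGHV genes in MEC2 and unmutated ones in HG3 and PCL12. Each line stands for 1 established culture, and no source says that the replicates came from separate cultures, so the p values measure the spread between these samples, which may be technical.

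Fc receptors bind the constant part of antibodies and couple it to the response of the cell. On B cells, FCGR2B (FcγRIIB) is the inhibitory receptor for IgG, FCMR is the receptor for IgM, and FCER2 (CD23) is the low-affinity receptor for IgE and a surface marker used in the diagnosis of CLL. The FCRL genes encode relatives of these receptors that are expressed mainly in the B lineage and carry inhibitory or activating tyrosine motifs in their cytoplasmic tails. FCRLA differs from them in that it stays inside the cell.

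In GENCODE release 44 on GRCh38, FCRL5, FCRL4, FCRL3, FCRL2 and FCRL1 lie in this order on the minus strand of chromosome 1 within 307 kb, from FCRL5 at chr1:157513377-157552515 to FCRL1 at chr1:157794403-157820120. FCGR2B (chr1:161663143-161678654) and FCRLA (chr1:161706972-161714352) lie 28.3 kb apart on the plus strand. FCMR (chr1:206903317-206923247) is on the long arm of the same chromosome and FCER2 is at chr19:7688758-7702146, both on the minus strand. FCRL3 and FCGR2B each overlap 1 gene of the opposite strand, and FCMR overlaps 3, IL24 among them. FCGR2B has close relatives in FCGR2A and FCGR2C, so reads may be split among these 3 genes, and their counts are given side by side with those of FCGR2B further on.

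Libraries held between 20382943 and 67308932 counts, and 3 counts in a library, taken as the limit that a count of 0 allows, corresponded to 0.0429 to 0.155 CPM, the count scaled to a common library total. The libraries carried B-cell transcripts: 8 of 8 B-cell markers were at a mean of 1 CPM or more in MEC2 and PCL12 and 7 in HG3, where BANK1 lay between 0 and 0.627 CPM. Of the 7 T-cell markers, TRAC alone reached a mean of 1 CPM in any line, and CD3D was at 0 in HG3 and MEC2. The summed level lay between 1.48 and 12.6 CPM for the 8 myeloid markers and between 1.04 and 12.1 CPM for the 5 NK-cell markers, of which GNLY was at 2.50 to 7.12 CPM in MEC2, 3.74 to 7.02 CPM in PCL12 and at most 0.558 CPM in HG3. Marker levels were scaled to library totals without TMM factors. The part of these levels in the results was not tested. PCL12 replicates 2 and 3 stood apart from PCL12 replicate 1. For 45 genes that mark MEC2 against PCL12 replicate 1, the median share of the MEC2 level reached was 29.0% to 31.3% in these 4 libraries. It was at most 2.36% in replicate 1, which the choice of genes low there had fixed. None of the 9 receptor genes was among those 45. Comparisons with PCL12 were therefore also run with replicate 1 only. PCL12 then has 1 library per condition, which is assumed to vary like those of the other lines, so its SE and p come from the spread in HG3 and MEC2 and a call can be lost for want of replicates. In 2 libraries, HG3 unstimulated replicate 2 and MEC2 CpG replicate 2, mitochondrial genes took 20.2% and 19.7% of the counts, against 2.82% to 9.28% in the others.

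The first question was which of these receptors separate the lines before stimulation. Of the 9 genes, 5 differed between unstimulated MEC2 and HG3 at an adjusted p under 0.05, and these 5 also differed between PCL12 and HG3, 3 of them with PCL12 replicate 1 only (edgeR quasi-likelihood test, Benjamini-Hochberg adjustment over all genes tested). FCRL2 and FCER2 were higher in HG3, and FCRL4, FCRLA and FCGR2B were higher in MEC2 and PCL12. Among all genes, 9.78% were called for MEC2 against HG3 and 9.44% for PCL12 against HG3. Between MEC2 and PCL12, FCRL4 was the only one of the 9 genes called, where 2.05% of all genes were. The 2 comparisons with HG3 share its 3 unstimulated libraries. Where lines are said not to overlap, the exact permutation p is 0.1, the smallest that 3 against 3 libraries allow. The share of all genes without such overlap was not counted. In bulk RNA, fewer expressing cells and less RNA per cell cannot be told apart.

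FCRL2, a receptor with inhibitory motifs that has been studied in CLL as a marker of IGHV mutation status, was at 11.1, 16.9 and 16.5 CPM in the unstimulated HG3 libraries. In MEC2 it was at 0.63, 0.163 and 0.627 CPM, and in PCL12 at 2.56, 0.927 and 0.789 CPM. Every HG3 library was above every library of the other lines. The log2 difference was -4.93 ± 0.63 (SE, n = 3 libraries per group) for MEC2 against HG3, a fold of 30.5 with an edgeR adjusted p of 3.5e-06. For PCL12 against HG3 it was -3.38 ± 0.57, with an edgeR adjusted p of 0.000167. With PCL12 replicate 1 only, the difference from HG3 was -2.52 ± 0.79 and no longer passed (edgeR adjusted p = 0.0772). PCL12 replicate 1 held the highest FCRL2 level of the 3 PCL12 replicates in the unstimulated and in the stimulated libraries, and without its unstimulated library the difference from HG3 was -4.11. MEC2 and PCL12 did not differ beyond the threshold (log2 difference -1.55 ± 0.57, edgeR adjusted p = 0.233, and -2.43 ± 0.65 with an adjusted p of 0.0524 when replicate 1 stood for PCL12).

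FCER2 was at 1503, 3248 and 1650 CPM in unstimulated HG3, at 485, 497 and 285 CPM in MEC2 and at 745, 680 and 303 CPM in PCL12. The lowest HG3 library was above the highest library of the other lines, and the highest HG3 value came from replicate 2, which is rich in mitochondrial counts. FCER2 was lower in MEC2 than in HG3 by a log2 difference of -2.34 ± 0.35 (fold 5.05, edgeR adjusted p = 4.07e-05). In PCL12 the difference from HG3 was -1.89 ± 0.35 (edgeR adjusted p = 0.00044). It was -1.90 in MEC2 and -1.45 in PCL12 without the 2 libraries rich in mitochondrial counts, with edgeR adjusted p values of 0.00286 and 0.0171. With PCL12 replicate 1 only, the PCL12 difference was -1.50 ± 0.51 and did not pass (edgeR adjusted p = 0.108). MEC2 and PCL12 overlapped (log2 difference -0.45 ± 0.34, edgeR adjusted p = 0.665).

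FCRL4, an inhibitory receptor for IgA that marks a memory B-cell subset of mucosal tissue, was at 1.52, 2.27 and 1.34 CPM in unstimulated HG3, at 12.9, 10.7 and 6.84 CPM in MEC2 and at 46.1, 30.6 and 34.1 CPM in PCL12. The 3 lines did not overlap. FCRL4 was the member that ordered all 3 lines, with PCL12 above MEC2 and MEC2 above HG3. MEC2 exceeded HG3 by a log2 difference of 2.58 ± 0.40 (edgeR adjusted p = 5.83e-05), and PCL12 exceeded HG3 by 4.45 ± 0.43 (fold 21.8, edgeR adjusted p = 5.18e-08). MEC2 was below PCL12 by a log2 difference of -1.87 ± 0.38 (edgeR adjusted p = 0.0054). With PCL12 replicate 1 only, this last difference was -2.22 ± 0.55 with an edgeR adjusted p of 0.0295.

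FCGR2B was at 3.45, 0.567 and 1.39 CPM in unstimulated HG3, at 24.8, 27.2 and 28.3 CPM in MEC2 and at 29.9, 18.1 and 20.2 CPM in PCL12. All MEC2 and PCL12 libraries were above all HG3 libraries, and MEC2 and PCL12 overlapped. The log2 difference from HG3 was 3.85 ± 0.43 in MEC2 (fold 14.4, edgeR adjusted p = 4.62e-07) and 3.62 ± 0.42 in PCL12 (fold 12.3, edgeR adjusted p = 1.01e-06). Without HG3 unstimulated replicate 1, the highest HG3 library, these differences were 4.74 and 4.51. With PCL12 replicate 1 only, FCGR2B exceeded its HG3 level by 4.03 ± 0.54 on the log2 scale, and with all replicates MEC2 and PCL12 differed by 0.23 ± 0.38 (edgeR adjusted p = 0.931).

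FCRLA, an intracellular protein that binds immunoglobulins in the endoplasmic reticulum, was at 21.3, 9.39 and 7.37 CPM in unstimulated HG3, at 98.1, 94.8 and 51.2 CPM in MEC2 and at 87.1, 60.3 and 48.7 CPM in PCL12. HG3 did not overlap with the other lines, whereas MEC2 and PCL12 did. The log2 difference from HG3 was 2.68 ± 0.45 in MEC2 (fold 6.40, edgeR adjusted p = 0.00035) and 2.36 ± 0.45 in PCL12 (fold 5.14, edgeR adjusted p = 0.00112). For FCRLA too, HG3 unstimulated replicate 1 was the highest HG3 library, and without it the differences were 3.29 and 2.97. It was 2.79 ± 0.59 with PCL12 replicate 1 only (edgeR adjusted p = 0.00822). In that reduction, 3 of the 9 genes differed between PCL12 and HG3, where 4.35% of all genes tested were called, and FCRL4 alone differed between MEC2 and PCL12, where 1.98% were.

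**Figure D1:**
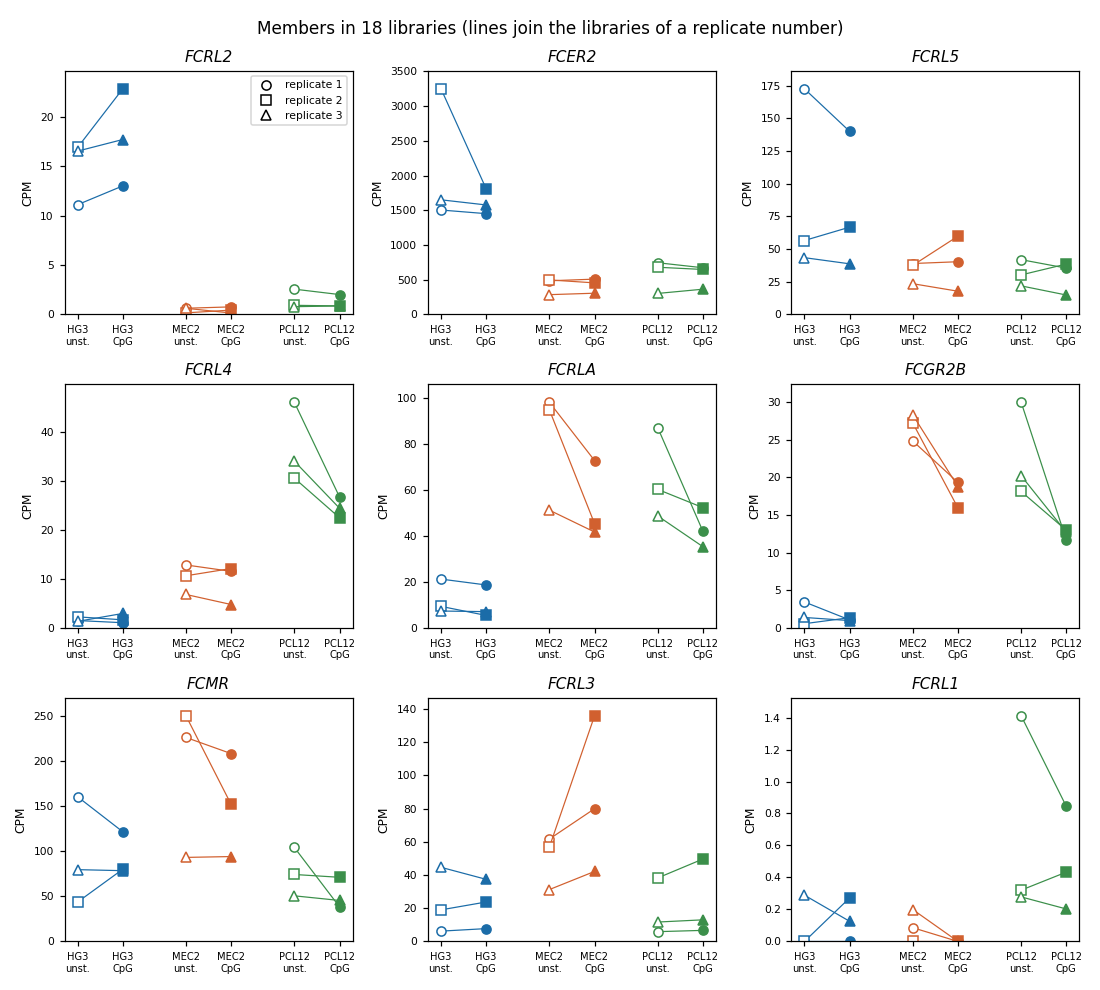
Level of each of the 9 receptor genes in CPM (TMM-scaled, linear axis from 0 with its own range in each panel) in the unstimulated (open) and CpG-stimulated (filled) libraries of HG3 (blue), MEC2 (orange) and PCL12 (green), each symbol a library and each line a replicate number. FCRL2 and FCER2 sit high in HG3 alone, FCRL4, FCRLA and FCGR2B sit low in HG3, and FCRL3 spreads by replicate within HG3 and PCL12.

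The promoters of these 5 genes are shown because the genes move in opposite directions between the lines. The sequences are those of RefSeq on GRCh38.p14, which matched all 9 genes with 12 windows of 300 bases, from 250 bases before to 50 bases after a start site. The 250 bases before the start site are printed 5′ to 3′ on the strand of the gene, and for FCER2 and FCGR2B, which have 2 windows each, the one shown is that of the start site nearest to the 5′ end of the gene model in GENCODE, for FCER2, or at the start given above, for FCGR2B. Capitals mark matches to any of 6 motifs searched on both strands: the octamer ATGCAAAT, the RBPJ motif GTGGGAA, the PU.1 motif GAGGAA, the AP-1 motif TGANTCA, the E-box CAGGTG and the NF-κB motif.
FCRL2 (chr1:157777133-157777382, minus strand): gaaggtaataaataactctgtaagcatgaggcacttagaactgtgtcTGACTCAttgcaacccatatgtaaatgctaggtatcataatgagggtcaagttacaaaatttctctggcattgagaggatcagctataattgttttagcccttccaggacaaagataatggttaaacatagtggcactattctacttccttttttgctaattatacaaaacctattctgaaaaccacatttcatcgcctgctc
FCER2 (chr19:7702132-7702381, minus strand): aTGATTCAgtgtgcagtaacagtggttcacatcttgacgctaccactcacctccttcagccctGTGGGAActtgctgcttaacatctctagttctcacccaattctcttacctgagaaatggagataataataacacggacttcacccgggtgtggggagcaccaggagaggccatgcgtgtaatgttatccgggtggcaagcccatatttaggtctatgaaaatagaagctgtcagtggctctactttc
FCRL4 (chr1:157598086-157598335, minus strand): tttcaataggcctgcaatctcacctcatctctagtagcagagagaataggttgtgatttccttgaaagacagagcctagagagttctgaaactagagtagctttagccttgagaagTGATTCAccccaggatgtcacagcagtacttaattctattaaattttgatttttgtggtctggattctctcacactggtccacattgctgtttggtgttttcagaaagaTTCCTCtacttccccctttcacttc
FCRLA (chr1:161706979-161707228, plus strand): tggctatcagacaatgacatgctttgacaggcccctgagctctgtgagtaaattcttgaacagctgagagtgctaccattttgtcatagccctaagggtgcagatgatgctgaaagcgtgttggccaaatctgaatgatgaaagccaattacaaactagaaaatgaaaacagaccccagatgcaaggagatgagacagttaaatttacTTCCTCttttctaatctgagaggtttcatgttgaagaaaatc
FCGR2B (chr1:161662893-161663142, plus strand): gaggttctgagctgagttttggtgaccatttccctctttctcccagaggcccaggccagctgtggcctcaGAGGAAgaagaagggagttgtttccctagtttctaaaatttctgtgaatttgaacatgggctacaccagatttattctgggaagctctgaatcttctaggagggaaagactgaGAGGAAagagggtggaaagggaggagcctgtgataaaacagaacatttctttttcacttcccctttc
The AP-1 letters occurred in windows of 6 of the 9 genes, FCRL1, FCRL2, FCRL3, FCRL4, FCGR2B and FCER2, and in 7 of the 12 windows, while 7.71% of the 35116 promoter windows of the table held them. In the FCRL genes the match began 203 bases before the start site in FCRL2, 164 in FCRL3, 143 in FCRL1 and 134 in FCRL4. In FCGR2B the match was in the window that is not printed. The FCRL genes are neighbours of related sequence, so their windows are not independent. The PU.1 letters were in windows of 5 genes (27.9% of all windows), the NF-κB motif in those of 3 (11.3%), the RBPJ letters in that of FCER2 alone (6.25%), the E-box in that of FCMR alone (20.6%) and the octamer in none (1.77%). FCER2 and FCRL2, both high in HG3, shared the AP-1 letters with FCRL4, which was low there. The PU.1 letters were in the printed windows of FCRL4, FCRLA and FCGR2B, all low in HG3, and not in those of FCRL2 and FCER2. They were absent from the FCGR2B window that is not printed. FCMR and FCRL1 also held them, and neither was called between unstimulated lines by edgeR with the filter and all libraries. The split among the printed windows was noticed after the levels were known and is a description of 5 windows. The windows held 0 to 6 CG dinucleotides, against a median of 14 over all windows.

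The remaining 4 genes were not called between unstimulated lines by edgeR with the filter on low counts and all libraries, and each was called under at least 1 other setting, given with the gene. FCRL5, a receptor for IgG found on memory B cells and plasma cells, was at 173, 56.6 and 43.5 CPM in HG3, at 39.0, 37.6 and 23.5 CPM in MEC2 and at 41.9, 30.3 and 21.9 CPM in PCL12. All HG3 libraries were above those of the other lines, and HG3 replicate 1 stood far above the other 2. For FCRL5 too, this lack of overlap has an exact permutation p of 0.1 against each line. The log2 difference was -1.45 ± 0.60 for MEC2 and -1.54 ± 0.60 for PCL12 against HG3, with edgeR adjusted p values of 0.17 and 0.144. Without HG3 unstimulated replicate 1 these differences were -0.58 and -0.67. DESeq2 called both (adjusted p of 0.0301 and 0.0203), as did edgeR without the filter on low counts. With the replicate number as a block across the lines edgeR also called both (-1.27, adjusted p = 0.00716, and -1.38, adjusted p = 0.0035), although no source ties a number to the same day or batch in different lines. With the unstimulated libraries alone, edgeR called the PCL12 difference and not that of MEC2. The PCL12 difference was -1.10 ± 0.92 with PCL12 replicate 1 only (edgeR adjusted p = 0.705).

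FCMR was at 161, 43.8 and 79.7 CPM in HG3, at 226, 250 and 93.3 CPM in MEC2 and at 104, 74.3 and 50.6 CPM in PCL12. The 3 lines overlapped. Its mean was highest in MEC2, by a log2 difference of 1.00 ± 0.44 from HG3 (edgeR adjusted p = 0.191) and of 1.31 ± 0.45 from PCL12 (edgeR adjusted p = 0.194). Without HG3 unstimulated replicate 1 the first of these was 1.64, with an edgeR adjusted p of 0.0183, and DESeq2 called the second (adjusted p = 0.0423). Without the filter on low counts edgeR called both differences of FCMR (adjusted p of 0.00678 and 0.000355).

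FCRL3, a receptor that carries inhibitory and activating motifs and binds secretory IgA, varied widely among the replicates of HG3 and PCL12, and the lines overlapped. It was at 6.22, 19.0 and 44.6 CPM in unstimulated HG3 replicates 1, 2 and 3, at 61.7, 56.9 and 31.3 CPM in those of MEC2 and at 5.90, 38.3 and 11.7 CPM in those of PCL12. The highest library was 7.18 times the lowest in HG3 and 6.49 times the lowest in PCL12. The CpG-stimulated libraries held the same order within HG3 (7.74, 23.8 and 37.4 CPM) and within PCL12 (6.68, 49.6 and 13.0 CPM). For PCL12, replicate 1 was the lowest, and with that replicate alone MEC2 exceeded PCL12 by 3.05 ± 1.26 on the log2 scale (edgeR adjusted p = 0.432), against 1.43 ± 0.94 with all 3. Without the filter on low counts edgeR called FCRL3 in MEC2 against HG3 (adjusted p = 0.00582) and in MEC2 against PCL12 (adjusted p = 0.000343).

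FCRL1, an activating relative of the family, was at or near the limit of detection outside PCL12. Unstimulated HG3 libraries had 0, 0 and 11 counts and those of MEC2 had 3, 0 and 7. In PCL12 there were 44, 9 and 12, that is 0.279 to 1.41 CPM. No difference between the lines passed in edgeR (adjusted p of 0.328 for PCL12 against HG3, and 0.491 with PCL12 replicate 1 only), while limma-voom called PCL12 against HG3 with an adjusted p of 0.0482. The fitted log2 difference of FCRL1 between PCL12 and HG3 was 2.70, and it ran from 1.58 without PCL12 unstimulated replicate 1 to 7.55 without HG3 unstimulated replicate 3, the only unstimulated HG3 library with a count.

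**Figure D2:**
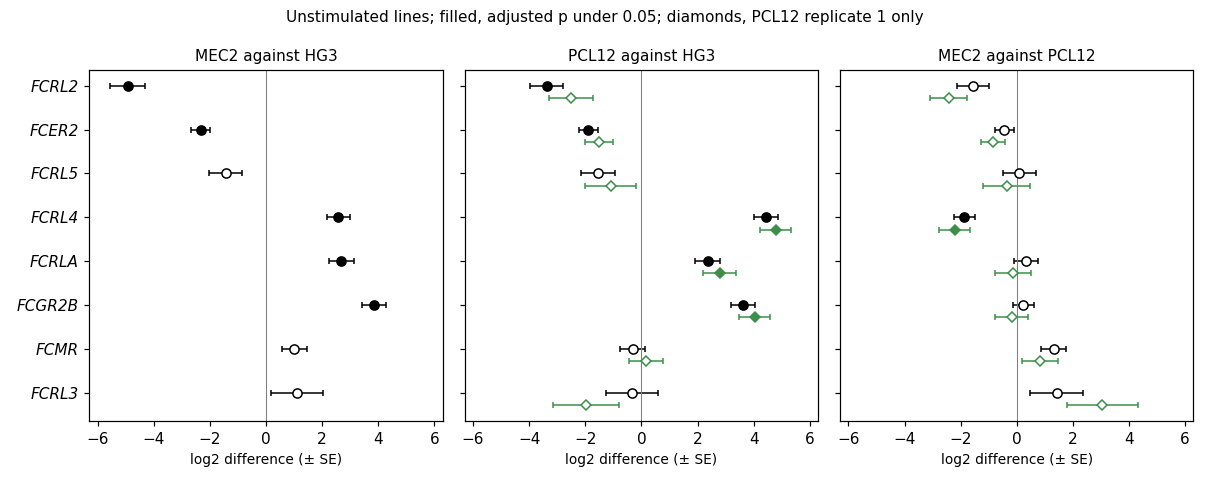
Log2 difference between unstimulated lines (dots, with SE of the edgeR fit as bars) for 8 receptor genes, FCRL1 left out for its low counts, with PCL12 replicate 1 only as green diamonds. Filled symbols have an adjusted p under 0.05. FCRL2 and FCER2 lie left of 0 and FCRL4, FCRLA and FCGR2B right of it in both comparisons with HG3, and FCRL4 alone is filled between MEC2 and PCL12.

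FCGR2B stands beside 2 near copies on chromosome 1, FCGR2A, an activating IgG receptor, and FCGR2C. In unstimulated HG3, FCGR2A lay between 0.263 and 0.879 CPM and FCGR2C between 0.11 and 0.671 CPM. In MEC2 they lay at 6.45 to 7.99 and at 10.5 to 14.8 CPM, and in PCL12 at 1.41 to 2.82 and at 1.54 to 5.38 CPM. All 3 genes were thus higher in MEC2 and PCL12 than in HG3, with log2 differences for MEC2 of 3.82 ± 0.67 (FCGR2A, edgeR adjusted p = 0.000235) and 5.11 ± 0.87 (FCGR2C, edgeR adjusted p = 0.000369). For PCL12 they were 2.04 ± 0.63 (FCGR2A, edgeR adjusted p = 0.0396) and 3.08 ± 0.82 (FCGR2C, edgeR adjusted p = 0.0179). With PCL12 replicate 1 only, the PCL12 differences were smaller, at 1.52 for FCGR2A and 2.03 for FCGR2C. FCGR2B took 71.1% of the counts of the 3 genes in unstimulated HG3, 57.1% in MEC2 and 81.6% in PCL12. Summed over the 3 genes, the level was 1.55 to 4.44 CPM in unstimulated HG3, 45.6 to 48.5 CPM in MEC2 and 24.8 to 32.9 CPM in PCL12, and the HG3 libraries were below all others in this sum.

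**Figure D3:**
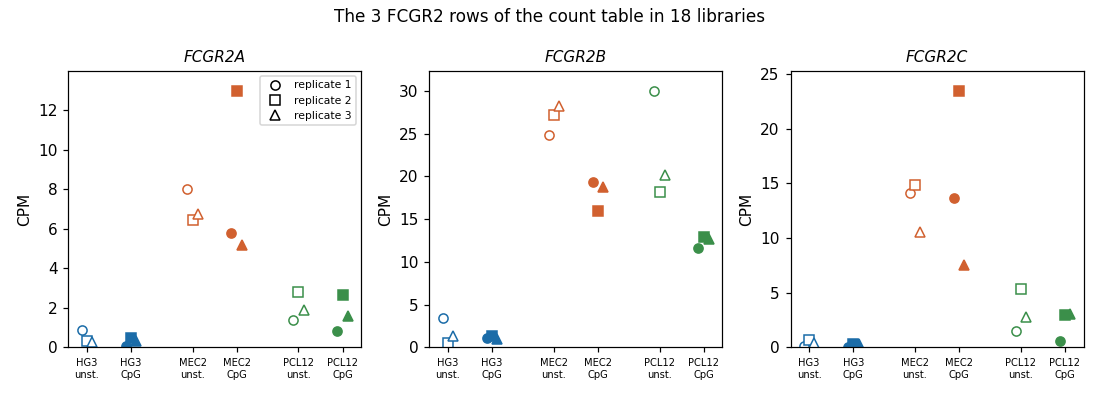
CPM of FCGR2A, FCGR2B and FCGR2C in the 18 libraries (unstimulated open, CpG-stimulated filled, HG3 blue, MEC2 orange, PCL12 green, linear axes from 0). The mean of each gene is lowest in HG3, although PCL12 CpG replicate 1 is at 0.844 CPM for FCGR2A and 0.558 CPM for FCGR2C, within the HG3 range, and the highest FCGR2A and FCGR2C values, 13.0 and 23.4 CPM, come from MEC2 CpG replicate 2, a library rich in mitochondrial counts.

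Of 16 other Fc receptor and FCRL genes, 11 could be tested. In MEC2 against HG3, 3 were higher (FCGR2A, FCGR2C and FCER1A) and 1 was lower, PIGR, the transporter of polymeric immunoglobulin (log2 difference -2.82 ± 0.55, edgeR adjusted p = 0.00183). The same 4 genes were called in PCL12 against HG3 in the same directions, and none of the 11 was called with PCL12 replicate 1 only. PIGR was at 33.3 to 98.8 CPM in unstimulated HG3, 3.22 to 10.7 CPM in MEC2 and 5.73 to 9.33 CPM in PCL12. FCER1A, the IgE-binding chain of the high-affinity IgE receptor, had no count in unstimulated HG3 and was at 0.286 to 0.688 CPM in MEC2. The median log2 difference of the 11 genes from HG3 was 1.28 in MEC2 and 1.76 in PCL12, or 0.42 and 0.13 when genes without a count in 1 of the groups were set at the bound given by 3 counts per library, and that of all genes tested was 0.

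Fc receptors signal through kinases, phosphatases and adaptors that phosphorylate or bind tyrosine motifs, inhibitory or activating. Of 16 such genes, among them the kinase SYK and the phospholipase PLCG2 of activating signals, 4 were higher in MEC2 than in HG3 and none was lower: DOK1, SYK, PTPN22 and INPP5D, which encodes SHIP1, the phosphatase recruited by FCGR2B (log2 difference 1.04 ± 0.27, edgeR adjusted p = 0.0126). In PCL12, 4 were higher than in HG3 and none was lower, DOK1, DOK2, SYK and PLCG2, and 3 of them passed with PCL12 replicate 1 only. The adaptor DOK2 was at 3.63 to 10.3 CPM in unstimulated HG3, 4.78 to 8.08 CPM in MEC2 and 32.7 to 68.4 CPM in PCL12, and MEC2 was below PCL12 by a log2 difference of -2.86 ± 0.43 (edgeR adjusted p = 0.000156), and of -3.45 ± 0.53 with PCL12 replicate 1 only (adjusted p = 0.00029). The median log2 difference of the 16 genes from HG3 was 0.34 in MEC2 and 0.63 in PCL12.

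Of 13 other inhibitory receptors of B cells, 2 were higher and 6 lower in MEC2 than in HG3, and 1 was higher and 5 were lower in PCL12 than in HG3. With PCL12 replicate 1 only, 1 was higher (SIGLEC10) and 3 were lower (PILRA, CD5 and LAIR1). CD5, the T-cell antigen that defines CLL cells among B cells, was at 24.1 to 69.6 CPM in unstimulated HG3, 0 to 0.057 CPM in MEC2 and 0.0929 to 1.35 CPM in PCL12. CD200, another CLL marker, was lower in MEC2 by a log2 difference of -2.48 ± 0.33 (edgeR adjusted p = 6.85e-06), and PILRA by -2.45 ± 0.32 (edgeR adjusted p = 5.22e-06). The sialic acid receptor SIGLEC10 was higher in PCL12 than in HG3 by 3.70 ± 0.60 (edgeR adjusted p = 0.000127). The median log2 difference of the 13 genes from HG3 was -1.60 in MEC2 and -0.42 in PCL12.

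Of 10 genes that act on CD23 or on the transcription of its gene, 2 were higher in MEC2 than in HG3, the transcription factor PAX5 (log2 difference 1.60 ± 0.30, edgeR adjusted p = 0.000591) and ADAM10, the protease that sheds CD23 from the cell (1.19 ± 0.26, edgeR adjusted p = 0.00278). In PCL12, 4 were higher than in HG3, PAX5, NOTCH2, SPIB and CR2, and 1 was lower, EBF1 (-0.99 ± 0.31, edgeR adjusted p = 0.0434). With PCL12 replicate 1 only, SPIB alone passed. Between MEC2 and PCL12 none of the 10 was called. The median log2 difference of the 10 genes from HG3 was 0.22 in MEC2 and 0.66 in PCL12.

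A list of 24 other genes of the same stretch of chromosome 1 was followed because 7 of the receptors lie there, and 22 were tested. In MEC2 against HG3, 5 were higher and none was lower: FCGR2A and FCGR2C, which the list of Fc receptors also holds, CD1A, CD1C and CD244. In PCL12 against HG3, 2 were higher, FCGR2A and FCGR2C, and 3 were lower, all receptors of the SLAM family (SLAMF6, LY9 and SLAMF1), and with PCL12 replicate 1 only none was higher and 2 were lower, SLAMF1 and CD84. SLAMF6 differed by -1.26 ± 0.29 (edgeR adjusted p = 0.00413), and by -1.20 ± 0.47 with PCL12 replicate 1 only (adjusted p = 0.208). The median log2 difference of the 22 genes from HG3 was 0.41 in MEC2 and 0.06 in PCL12, and 0 in both with the genes that had no count in a group set at their bound.

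Over the 18 libraries, Pearson's r of the log2 CPM was 0.93 between FCRLA and FCGR2B and 0.91 between FCRL2 and FCER2, and it was -0.90 between FCRL2 and FCGR2B and -0.90 between FCGR2B and FCER2. These 18 points share lines and replicates and are given as a description. Among genes with a mean of 1 CPM or more, those most like FCRL2 were TOM1L2 (r = 0.98), CD5 (0.97) and IGLC2 (0.97), and those most like FCER2 were RGS1, ODF3B and HIST1H1C (each 0.96). Those most like FCGR2B included AC073585.1 (0.98) and ZBED2 (0.97), and FCRLA was most like CCRL2 (0.97), NLRC3 and ZBED2 (both 0.95). FCRL4 was most like GJB2 and ASB2 (both 0.97) and SIGLEC6 (0.96). FCRL3, FCRL5 and FCMR had less similar partners, led by ZC3H12C (0.92), RUFY3 (0.91) and BTN3A2 (0.90).

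The second question was whether 4 h of CpG stimulation altered these receptors. None of the 9 genes was called in HG3, MEC2 or PCL12 by edgeR, where 1, 1 and 0 of all genes tested had an adjusted p under 0.05, or 0.00314%, 0.00314% and 0%. At an unadjusted p under 0.05 there were 0, 1 and 1 of the 9 genes in HG3, MEC2 and PCL12, and 1189, 783 and 665 of the 31872 genes tested. The cutoffs of the study for differentially expressed genes, a nominal p under 0.01 and a log2 change of at least 1, were also applied to the edgeR values. None of the 9 passed them either, where 0.496%, 0.251% and 0.116% of all genes did. The study used limma with these cutoffs and reports more genes in each line, so these shares are not its own. DESeq2 and limma-voom called none of the 9 genes in any line. With the replicate number as a block, edgeR called 43, 106 and 15 genes in the 3 lines (0.135%, 0.333% and 0.0471%), and none of the 9 was among them. The stimulated libraries carried a response: NFKBIZ was higher after CpG in MEC2 by a log2 change of 2.20 ± 0.33 (edgeR adjusted p = 0.0154). Its changes of 0.66 ± 0.32 in HG3 and 1.71 ± 0.33 in PCL12 did not pass after adjustment. Their unadjusted edgeR p values were 0.049 and 1.7e-05. The study reports NFKBIZ induction in MEC2 and PCL12, also by real-time PCR, and low or none in HG3.

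The fitted log2 change of the 8 genes other than FCRL1 ran from -0.70 to 0.27 in HG3 and from -0.61 to 0.79 in MEC2. The PCL12 changes ran from -0.87 to 0.31. All had SE of 0.34 to 0.93. The median of the 8 was -0.09, -0.07 and -0.37 in the 3 lines, and that of all genes was 0, 0 and 0.02. FCRL1 had no count in any CpG-stimulated MEC2 library and 3, 0 and 7 counts in the unstimulated ones, so both groups were at or near the limit and no fold is given.

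FCGR2B was lower after CpG in 8 of the 9 pairs of libraries with the same line and replicate number, and 1.73% of all genes were lower in 8 or more. In MEC2 it was at 19.3, 15.9 and 18.8 CPM after CpG, against 24.8, 27.2 and 28.3 CPM unstimulated, and in PCL12 at 11.7, 13.0 and 12.7 CPM, against 29.9, 18.1 and 20.2 CPM. The groups did not overlap in either line, as in 0.129% of all genes (2.2% in MEC2 and 2.02% in PCL12). The summed level of FCGR2A, FCGR2B and FCGR2C did overlap in MEC2, at 31.5 to 52.3 CPM after CpG against 45.6 to 48.5 CPM before. The highest of these sums came from MEC2 CpG replicate 2, the library rich in mitochondrial counts. In PCL12 the sum was 13.1 to 18.6 CPM after CpG against 24.8 to 32.9 CPM before, without overlap. In HG3, FCGR2B was at 1.07, 1.36 and 0.978 CPM after CpG, within the range of the unstimulated libraries, and the pair that went up was replicate 2, where 11 counts were found before stimulation in the library rich in mitochondrial counts. The log2 change was -0.57 ± 0.38 in MEC2, -0.87 ± 0.38 in PCL12 and -0.70 ± 0.41 in HG3 (edgeR adjusted p = 1 in each). For PCL12 replicate 1, the ratio of the CPM after CpG to that before was 0.39, and for replicates 2 and 3 it was 0.716 and 0.629.

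FCRLA was lower after CpG in all 9 pairs, as were 0.21% of the genes tested. It was at 72.8, 45.4 and 41.7 CPM in stimulated MEC2, against 98.1, 94.8 and 51.2 CPM before, and at 42.0, 52.3 and 35.3 CPM in stimulated PCL12, against 87.1, 60.3 and 48.7 CPM before. In HG3 it was at 18.7, 5.44 and 7.10 CPM after CpG. The groups overlapped in each line. The ratio after to before lay between 0.478 and 0.963 over the pairs, with a median of 0.742. The lowest ratio of FCRLA was that of MEC2 replicate 2 and the ratio of HG3 replicate 2 was 0.58, both pairs with a library rich in mitochondrial counts, and PCL12 replicate 1 had 0.483. For FCRLA the log2 change was -0.29 ± 0.43 in HG3, -0.61 ± 0.43 in MEC2 and -0.60 ± 0.43 in PCL12 (edgeR adjusted p = 1 in each).

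**Figure D4:**
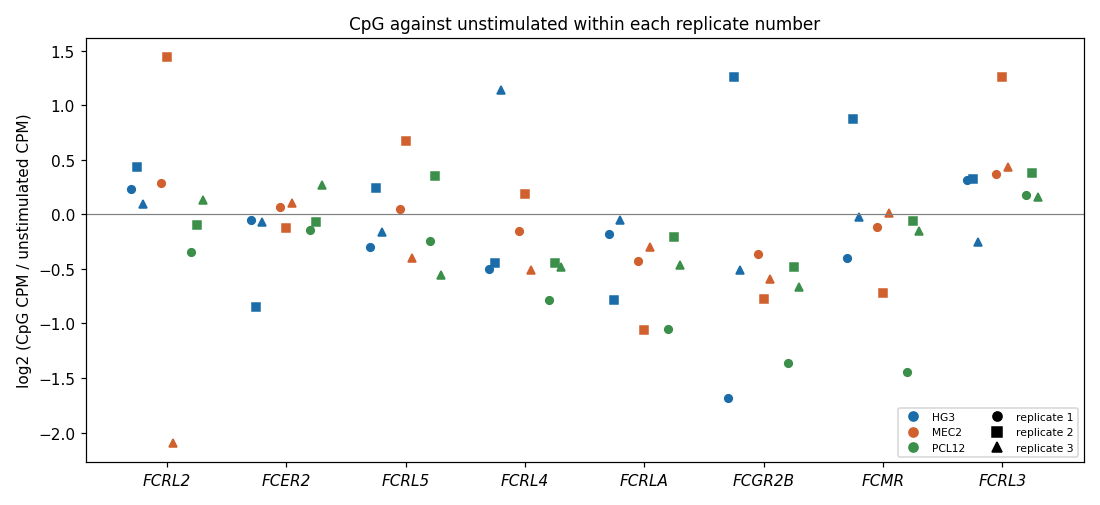
Log2 ratio of CPM after CpG to CPM before it for 8 receptor genes (FCRL1 left out, as it has libraries without a count), each symbol a pair of libraries of the same line and replicate number, HG3 blue, MEC2 orange and PCL12 green. All 9 symbols of FCRLA and 8 of FCGR2B lie below the line at 0, and those of FCER2 lie between -0.85 and 0.26, with HG3 replicate 2 the lowest at -0.85.

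A mean change over the 3 lines was tested after these values had been seen. In edgeR it was -0.72 ± 0.22 for FCGR2B (edgeR adjusted p = 1.00) and -0.50 ± 0.25 for FCRLA (edgeR adjusted p = 1.00), and neither was called, where 3 genes or 0.00941% of all were. With the replicate number as a block, the mean change was -0.50 ± 0.13 for FCRLA and -0.63 ± 0.17 for FCGR2B, with edgeR adjusted p values of 0.0186 and 0.0382, and both were among the 177 genes called (0.555%). The block relies on the replicate numbers, which the libraries of MEC2 replicates 1 and 2 did not follow: CpG replicate 1 correlated more with unstimulated replicate 2 (0.449) than with its own number (0.189), and CpG replicate 2 more with unstimulated replicate 1 (0.388) than with its own (-0.0133). limma-voom made neither call: with the same block in limma-voom the adjusted p values were 0.548 for FCRLA and 0.809 for FCGR2B. With the block and PCL12 replicate 1 only, FCRLA had a change of -0.65 ± 0.17 (edgeR adjusted p = 0.0482) and FCGR2B one of -0.79 ± 0.23 (edgeR adjusted p = 0.112), where 0.383% of all genes were called.

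FCMR was lower after CpG in 7 of 9 pairs, where 6.83% of all genes were lower in 7 or more, and the lowest ratio of CPM after to before was 0.368, in PCL12 replicate 1, from 104 to 38.4 CPM. In PCL12 replicates 2 and 3 the ratios were 0.958 and 0.899, and in HG3 they were 0.758, 1.83 and 0.986. The log2 change was -0.02 ± 0.44 in HG3, -0.33 ± 0.44 in MEC2 and -0.56 ± 0.44 in PCL12 (edgeR adjusted p = 1 in each).

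FCRL4 was at 26.8, 22.5 and 24.4 CPM in stimulated PCL12, below all 3 unstimulated libraries at 46.1, 30.6 and 34.1 CPM. In PCL12, 2.02% of all genes were lower after CpG without overlap. The log2 change of FCRL4 was -0.59 ± 0.37 and did not pass (edgeR adjusted p = 1). Over the lines FCRL4 was lower after CpG in 7 of 9 pairs, where 6.83% of all genes were lower in 7 or more. In MEC2 and HG3 its groups overlapped. FCRL3 was higher after CpG in 8 of 9 pairs, where 1.64% of all genes were higher in 8 or more, with a log2 change of 0.79 ± 0.92 in MEC2, 0.31 ± 0.93 in PCL12 and -0.02 ± 0.92 in HG3, and its largest value, 136 CPM, was that of MEC2 CpG replicate 2, the library rich in mitochondrial counts. FCRL2 in HG3, the line where it was abundant, was at 13.0, 22.9 and 17.7 CPM after CpG, higher than before in all 3 pairs, with a log2 change of 0.27 ± 0.52 (edgeR adjusted p = 1). The HG3 groups overlapped, and the share of all genes higher in all 3 HG3 pairs was not counted. Over the lines, FCRL2 was higher after CpG in 6 of 9 pairs and lower in 3.

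The HG3 ratios of FCER2, CPM after to CPM before, were 0.965, 0.557 and 0.955. Those of MEC2 were 1.05, 0.915 and 1.07, and PCL12 had 0.903, 0.953 and 1.20, the lowest of all being that of the HG3 pair whose unstimulated library was rich in mitochondrial counts. The log2 change was -0.40 ± 0.34, 0.00 ± 0.34 and -0.04 ± 0.34 in HG3, MEC2 and PCL12. FCRL5 showed ratios between 0.68 and 1.59, with 5 pairs lower and 4 higher.

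The CpG change was not shown to differ between the lines for any of the 9 genes. The differences of MEC2 from HG3, PCL12 from HG3 and MEC2 from PCL12 gave no call among them by edgeR, where 0%, 0.00314% and 0% of all genes were called. For FCGR2B these differences were 0.13 ± 0.55, -0.17 ± 0.56 and 0.30 ± 0.53 on the log2 scale, and for FCRLA -0.32 ± 0.60, -0.31 ± 0.60 and -0.01 ± 0.60. None of the tested genes of the lists of other Fc receptors, signalling genes, inhibitory receptors, CD23-related genes and chromosome 1 neighbours was called after CpG in any line by edgeR.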

How the data were processed

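RNA of HG3, MEC2 and PCL12 cells, unstimulated or stimulated with ODN-2006, was measured in 18 libraries. The values are gene counts that the authors deposited as 1 table of raw counts without normalization, and all its columns were used. The submitters' processing notes name FastQC, MultiQC, Trimmomatic, STAR and featureCounts and the build hg38, and give no versions. The gene annotation and what was done with duplicates are not given in the sources used here. The labels name a Promega kit and Lexogen QuantSeq libraries, whereas the paper names a Qiagen kit and a stranded reverse protocol, so no gene was ranked against another by level. Shares of counts among FCGR2A, FCGR2B and FCGR2C are given, and whether gene length enters them is not known. Reads that are PCR copies may have been counted separately, and the limits drawn from counts cover counting error only.

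Genes with at least 10 counts over the 18 libraries were kept (31872 of 42248 with any count) and fitted in edgeR 4.0.16 (R 4.3.3) with TMM factors, 1 mean for each of 6 groups, quasi-likelihood dispersions (robust estimate) and 12 residual df. P values were adjusted by Benjamini-Hochberg over all genes tested, and CPM used the TMM factors, except for cell type markers and the genes marking MEC2, scaled to library totals. limma 3.58.1 and DESeq2 1.42.0 were alternatives, as were RLE scaling, filterByExpr, no filter, a replicate block, PCL12 replicate 1 only, the libraries rich in mitochondrial counts left out, only unstimulated libraries, only the libraries of a given line, and the omission of each library in turn. Likeness used log2 CPM with a prior count of 2. Figures and lists used Python 3.11.15. The fits were tested on simulated data.

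The receptors, the gene lists and the tests were chosen with earlier results of these data known. The mean change over the lines, and the block with PCL12 replicate 1 only, were added after seeing the data. The named genes are the 9 receptors, from each other list up to 4 genes per comparison with the smallest p past the threshold, genes of the CpG response, and, for each receptor with a mean of at least 1 CPM in a group, the 3 genes most like it, of which 1 is not reported here. BANK1, TRAC, CD3D, GNLY, CR2, CD244 and CD84 were named after their values were seen. Genes marking MEC2 reached 20 CPM or more throughout MEC2 and 10% of the mean MEC2 level or less in both PCL12 libraries of replicate 1, immunoglobulin genes left out.

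By the design text of the series, a replicate comprised 1 sample with and 1 without stimulation, so the numbers pair the libraries of a line. After removal of group means, libraries of the same number correlated by 0.259, 0.212 and 0.480 in HG3, by 0.189, -0.0133 and 0.611 in MEC2 and by 0.607, 0.494 and 0.515 in PCL12. In MEC2, CpG 1 with unstimulated 2 (0.449) and CpG 2 with unstimulated 1 (0.388) exceeded the values of the same number.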

Additional observations from a re-analysis of the deposited data

How the results depend on the processing

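Of the receptors, 5 were called for unstimulated MEC2 against HG3, 8 without the filter on low counts and 5 to 6 when each library was left out. For PCL12 against HG3, 5 were called, 3 with PCL12 replicate 1 only, where PCL12 is 1 library, 5 when each library was left out, and 6 by DESeq2, by limma-voom, without the filter, with the replicate block across lines or with the unstimulated libraries alone. For MEC2 against PCL12, 1 was called, 2 by DESeq2, 3 without the filter and 1 when each library was left out. After CpG, 0 were called in each line, in the differences between lines and in the mean of 3 lines, also when each library was left out. The replicate block gave 2 in that mean, and 1 with PCL12 replicate 1 only, and it changed no other call on CpG. Leaving out the 2 libraries rich in mitochondrial counts left the same 5 receptors called against HG3. Over single values, 350 of 396 kept direction and side of the threshold when a library was left out (1 became called, 45 changed sign), and 475 of 517 under other settings (16 became called, 2 lost the call, 24 changed sign). No called value changed sign, and the cause of the changes was not tested.

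Log2 values that changed sign were, in unstimulated lines, FCRL1 in MEC2 against HG3 (0.78 by limma-voom, 0.10 with the replicate block across lines) and, with PCL12 replicate 1 only, FCMR in PCL12 against HG3 (0.16) and FCRL5, FCRLA and FCGR2B in MEC2 against PCL12 (-0.36, -0.13 and -0.19). After CpG in HG3 they were FCRL3 (0.15 by limma-voom, 0.12 with the replicate block, 0.0323 with both, 0.0065 in the line alone) and FCMR (0.0584, 0.14 and 0.0145 in the first 3 of these), and without the libraries rich in mitochondrial counts FCRL1 (-0.11) and FCER2 (0.0315). In MEC2, FCRL5 was at -0.20 without those libraries. For FCER2, CpG against unstimulated MEC2 changed sign without those libraries (-0.0516), by DESeq2 (-0.0043), RLE scaling (-0.0042) and filterByExpr (-0.0132), and in the line alone (-0.0137). In PCL12 they were FCRL2 (0.0646 by limma-voom) and FCER2 (0.064 by limma-voom, 0.0158 with the replicate block).

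With each library left out, values that changed sign ranged as follows. In unstimulated lines FCRL1 ranged from -1.07 to 4.82 in MEC2 against HG3, FCRL3 from -1.39 to 0.57 and FCMR from -0.63 to 0.33 in PCL12 against HG3, and FCRL5 from -0.12 to 0.36 in MEC2 against PCL12. After CpG in HG3 the ranges were -0.68 to 5.24 (FCRL1), -0.57 to 0.87 (FCRL3), -0.31 to 0.45 (FCRL4), -0.79 to 0.72 (FCRL5), -1.02 to 0.33 (FCRLA), -1.07 to 0.19 (FCGR2B), -0.34 to 0.62 (FCMR) and -0.61 to 0.0583 (FCER2). In MEC2 they were -0.62 to 0.32 (FCRL2), -0.30 to 0.23 (FCRL4), -0.19 to 0.59 (FCRL5) and -0.21 to 0.19 (FCER2). In PCL12 they were -1.08 to 0.73 (FCRL1), -0.73 to 0.58 (FCRL2), -0.93 to 1.40 (FCRL3), -0.31 to 0.24 (FCRL5) and -0.35 to 0.20 (FCER2), and in the mean of 3 lines FCRL3 ranged from -0.0607 to 0.71. FCRL2, FCRL5 and FCER2, not counted above in that mean, ranged from -0.17 to 0.26, -0.21 to 0.29 and -0.26 to 0.0029 there, and under other settings FCRL2 ranged from -0.03 to 0.09 and FCRL5 from -0.23 to 0.02. Depth limits FCRL1, with 0 to 11 counts a library outside PCL12.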
